A study of Mus musculus with 12 samples.

Results

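The genes described here are 9 transcription factors of the ETS, SRF and MEF2 families, named as candidate partners of the Mediator subunit MED23. They are the ternary complex factors *Elk1*, *Elk3* and *Elk4*, the ETS factors *Ets1* and *Ets2*, the serum response factor *Srf*, and the MEF2 genes *Mef2a*, *Mef2c* and *Mef2d*. They were taken by name, with every probe set that the platform annotation gives to 1 of these symbols and to no other gene. This gave 13 probe sets of 8 genes, out of 8252 genes with such a probe set on the array. *Srf* had no probe set of its own symbol alone, so its transcript was not analysed here.

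Mediator links DNA-bound transcription factors to RNA polymerase II, and MED23 is the subunit through which ELK1 is known to engage it once ERK has phosphorylated ELK1. SRF binds the CArG box, and the ternary complex factors ELK1, ELK3 and ELK4 join it at a nearby ETS core to switch on immediate early genes. ETS1 and ETS2 bind the same core without SRF, and ETS1 is abundant in the T-cell lineage. MEF2 factors are held inactive by class II histone deacetylases and by CABIN1 until calcium signals from the T-cell receptor release them.

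The study asked how loss of MED23 changes gene expression in thymocytes and their response to T-cell receptor engagement. Total thymocytes came from female C57Bl/6 x 129Sv (F1) mice of 6 to 7 weeks: 2 MED23 null mice (*Med23flox/flox;Lck-Cre*), 2 *Lck-Cre* mice (*Med23+/+;Lck-Cre*) and 2 *Med23flox/flox* mice without Cre. The MED23 null mice share the Cre transgene with the *Lck-Cre* controls and the floxed alleles with the *Med23flox/flox* controls; this Cre deletes from the DN4 stage on, so earlier thymocytes and non-T cells keep *Med23*. After a rest of 4 h, thymocytes of every animal spent 3 h in a well coated with αCD3 antibody, a stimulus of the T-cell receptor complex, or in an uncoated well (mock), giving 12 arrays of 6 mice. The labels give a different mouse for each replicate.

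The values are MAS5 signals, a linear brightness per probe set that cannot be compared between probe sets. Signals below 100 are pointed out because they lie near the dim end of an array, whose lower quartile was 50 to 58.2 on 11 arrays. On the αCD3 array of *Med23flox/flox* replicate 1 it was 85.2, and this array also correlated least with the others (mean r = 0.905, against 0.937 to 0.945). *Cd3g*, *Cd4* and *Cd8a*, which define thymocytes, were at 3682 or above on every array. The *Med23* probe set had signals of 268 and 207 in mock-treated MED23 null cells and 288 to 424 in mock-treated controls. After αCD3 it had 252 and 239 in MED23 null cells and 310 to 489 in controls, and it is not known whether its probes lie in the deleted exons. Summed signals of 4 NK cell markers were 3710 to 5353 in mock-treated MED23 null cells and 1304 to 1851 in controls, with *Ncr1* below 100 throughout. For 8 double positive markers they were 73020 to 79270 in MED23 null cells and 92030 to 97030 in controls. Among these markers *Cd4* went the other way, at 5374 and 4965 in MED23 null cells and 3959 to 4513 in controls. *Cd8a* overlapped, at 8741 and 8457 against 6986 to 11020. For 10 mature single positive markers the sums were 15990 to 17270 in MED23 null cells and 18910 to 24680 in controls. The brightest markers weigh most in such sums. By flow cytometry, the study found normal shares of double negative, double positive and single positive thymocytes where *Med23* was efficiently deleted. It also found less *Klf2* mRNA, a marker of the single positive list, in purified CD4 single positive cells lacking MED23. The part of cell makeup in the values of the factors was not tested. From arrays of total thymocytes alone, fewer cells of a type and less RNA per cell cannot be told apart.

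The promoters of the factors themselves were searched for the boxes these families bind. The windows run from 250 bases before to 50 bases after an annotated start (RefSeq, GRCm38.p6), and 8 of the 9 genes have entries, 12 windows in all; *Ets1* is named only. Both strands were searched for the CArG box, the MEF2 box CTANNNNTAG and the ETS core CCGGAA, which occur in 1.63%, 3.69% and 14.9% of all 32851 windows. A CArG box was found in the window of *Srf* alone among the 8, a MEF2 box in that of *Mef2a* alone, and an ETS core in those of *Srf*, *Elk4* and *Mef2a*, so that 1, 1 and 3 of the 12 windows held the boxes. Stretches of 120 bases are printed 5′ to 3′ for these factors, because they hold boxes of the kinds these families bind. So are those of 2 measured target genes, *Egr2* of the SRF list and *Klf2* of the MEF2 list, as examples with a match. A further gene of the MEF2 list with a MEF2 box is not printed. No share of listed targets with a box is given. Capitals mark the matches, none of which overlap. The *Srf* stretch (chr17:46556170-46556289, minus strand) holds an ETS core and 2 CArG boxes, which begin 82 and 62 bases before the start:
Srf: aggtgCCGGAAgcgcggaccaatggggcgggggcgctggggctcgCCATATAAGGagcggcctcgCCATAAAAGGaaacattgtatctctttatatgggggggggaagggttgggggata
The *Elk4* stretch (chr1:132007495-132007614, plus strand) holds 1 ETS core, which begins 68 bases before the start. The *Mef2a* stretch (chr7:67372809-67372928, minus strand) holds a MEF2 box that begins 2 bases before the start and so spans it. Upstream lies an ETS core that reads on the opposite strand:
Elk4: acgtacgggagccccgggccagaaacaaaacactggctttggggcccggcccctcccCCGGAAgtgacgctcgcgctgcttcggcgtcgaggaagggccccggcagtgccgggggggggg
Mef2a: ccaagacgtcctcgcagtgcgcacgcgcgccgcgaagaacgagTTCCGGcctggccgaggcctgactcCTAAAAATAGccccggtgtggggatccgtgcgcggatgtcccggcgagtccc
*Egr2* has windows at different annotated starts, and 2 of its windows hold a CArG box (chr10:67537742-67537861 and chr10:67537439-67537558, both plus strand), the second with an ETS core after it. *Klf2* has a MEF2 box 118 bases before its start (chr8:72318889-72319008, plus strand):
Egr2 first: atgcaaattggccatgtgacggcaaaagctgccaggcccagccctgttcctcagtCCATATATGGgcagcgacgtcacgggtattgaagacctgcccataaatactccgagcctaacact
Egr2 second: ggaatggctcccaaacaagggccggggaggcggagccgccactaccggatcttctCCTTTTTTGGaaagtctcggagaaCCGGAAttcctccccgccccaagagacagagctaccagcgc
Klf2: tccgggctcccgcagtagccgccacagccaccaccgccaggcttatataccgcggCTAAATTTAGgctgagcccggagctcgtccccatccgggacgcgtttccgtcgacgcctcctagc
A match is a description of the letters and not a measured site.

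None of the factors passed the test in any comparison. Of the 13 probe sets, 9 probe sets of 7 genes reached a mean signal of 100 in at least 1 of the 6 conditions and were tested with limma among 9478 probe sets, with p values adjusted over all of them and a threshold of 0.05. In 11 comparisons of induction and of genotype, 0 of the 9 passed. Over the whole array, 0.148% of probe sets passed for induction in controls, 0.0317% for induction in MED23 null cells and 0.0% in each comparison between genotypes. At an unadjusted p under 0.05, 2 of the 9 were counted for induction in controls, 1 for induction in MED23 null cells, 2 for the difference in induction, 1 for MED23 null against controls in mock-treated cells and 0 after αCD3. The shares of all probe sets at that level were 7.78%, 5.36%, 5.13%, 7.40% and 6.16% in the same order. Against each control genotype, 1 of the 9 was counted from *Lck-Cre* (7.30%) and 1 from *Med23flox/flox* (7.34%) in mock-treated cells, and 1 from *Lck-Cre* (4.83%) and 0 from *Med23flox/flox* (7.72%) after αCD3. Between the control genotypes it was 1 in mock-treated cells (5.64%) and 0 after αCD3 (5.93%). With 2 mice in each genotype the intervals are wide, and a difference that misses the test is not shown to be absent.

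**Figure D1:**
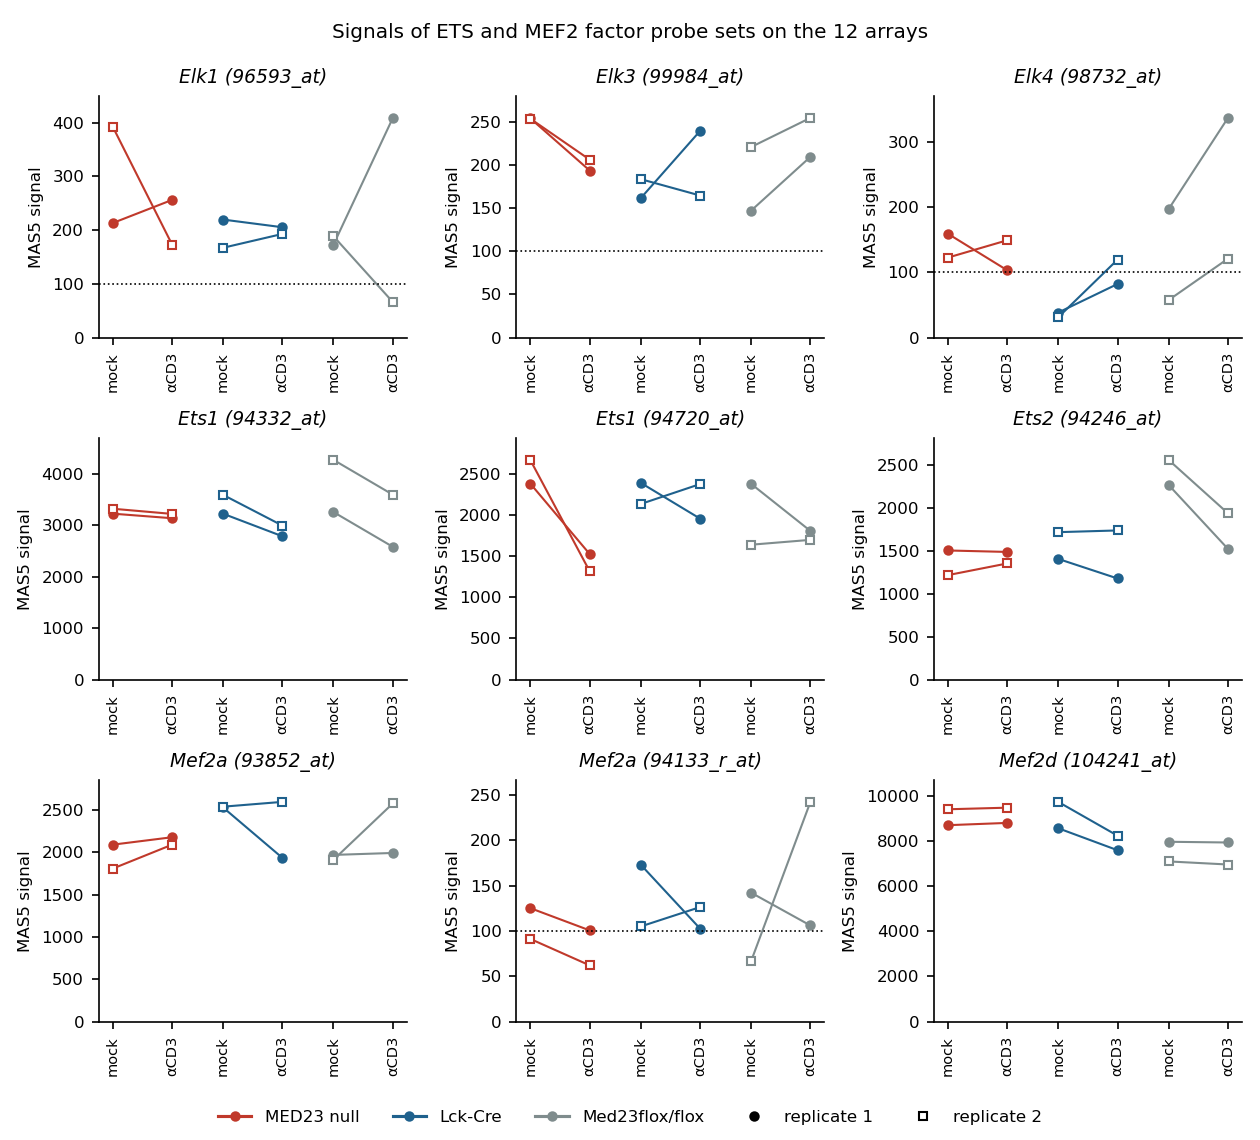
MAS5 signal (linear scale from 0) of the 9 tested probe sets on the 12 arrays, with MED23 null mice at the left of each panel, then *Lck-Cre* and *Med23flox/flox* mice; a line joins the mock and the αCD3 array of 1 mouse and the dotted line marks a signal of 100. The *Ets1*, *Ets2* and *Mef2d* probe sets and *Mef2a* 93852_at lie far above 100 on all arrays, while *Elk4* and *Mef2a* 94133_r_at cross that line, as *Elk1* does on 1 array at 65.9.

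Of the ternary complex factors, *Elk3* was the one whose MED23 null and control signals did not overlap in mock-treated cells. ELK3, also called NET, represses transcription until it is phosphorylated. The *Elk3* probe set 99984_at had mock signals of 254 in both MED23 null mice, against 162 and 184 in *Lck-Cre* mice and 147 and 221 in *Med23flox/flox* mice. Both MED23 null values thus lay above all 4 controls, as they did for 9.27% of all tested probe sets, and *Elk3* was the only 1 of the 9. The log2 difference was 0.42 (standard error 0.17, interval 0.01 to 0.84), with an adjusted p of 0.665. Against each control genotype it was 0.45 from *Lck-Cre* (standard error 0.22, adjusted p = 0.757) and 0.40 from *Med23flox/flox* (standard error 0.22, adjusted p = 0.736).

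After αCD3 the *Elk3* signals were 194 and 206 in MED23 null cells, against 240 and 165 in *Lck-Cre* and 210 and 255 in *Med23flox/flox* cells, and the groups overlapped. Mouse by mouse, the *Elk3* ratio of αCD3 over mock was 0.762 and 0.813 in MED23 null mice and 1.48, 0.897, 1.43 and 1.15 in the controls. The MED23 null ratios were below all 4 control ratios, as for 7.36% of all probe sets. The difference in induction was -0.51 on the log2 scale (standard error 0.24, interval -1.08 to 0.06, adjusted p = 0.971).

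*Elk4*, also known as SAP1 and needed for positive selection in mice, had the largest induction among the 9 probe sets in control cells. Its ratio of αCD3 to mock signal was 0.648 and 1.22 in MED23 null mice, against 2.15 and 3.87 in *Lck-Cre* mice and 1.71 and 2.11 in *Med23flox/flox* mice. It was above 1 in 4 of 4 controls, which holds for 9.16% of all tested probe sets. The log2 change in controls was 0.74 (standard error 0.16, interval 0.37 to 1.12) with an adjusted p of 0.215, the lowest of the members in any comparison. In MED23 null mice it was -0.12 (standard error 0.22, interval -0.65 to 0.41, adjusted p = 0.999), and the difference between the groups was -0.86 (standard error 0.27, interval -1.51 to -0.22, adjusted p = 0.930).

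These *Elk4* ratios rest on dim signals. Probe set 98732_at had mock signals of 159 and 122.5 in MED23 null cells, 38.2 and 30.9 in *Lck-Cre* cells and 197 and 57.3 in *Med23flox/flox* cells. Its αCD3 signals were 103 and 149 in MED23 null cells, 82.1 and 119.5 in *Lck-Cre* cells and 337 and 121 in *Med23flox/flox* cells. It was below 100 on 4 of 12 arrays, 3 of them mock arrays of controls, so that 3 of the 4 control ratios have a dim signal below them. The 337 comes from the αCD3 array with the raised lower quartile. Without that mouse the difference between MED23 null and control cells after αCD3 was 0.16 on the log2 scale (adjusted p = 0.895), against -0.17 with it (standard error 0.42, adjusted p = 0.980).

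*Elk1*, the ternary complex factor best known to work through MED23, varied widely among mice of 1 genotype. Probe set 96593_at had mock signals of 213 and 393 in MED23 null cells, 220 and 167 in *Lck-Cre* cells and 173 and 189 in *Med23flox/flox* cells. Its αCD3 signals were 256 and 173 in MED23 null cells, 205 and 193 in *Lck-Cre* cells and 409 and 65.9 in *Med23flox/flox* cells. The log2 difference of MED23 null from control cells was 0.53 in mock-treated cells (standard error 0.23, interval -0.02 to 1.09, adjusted p = 0.676) and 0.12 after αCD3 (standard error 0.50, adjusted p = 0.980). The mock value rests on the 393 of MED23 null replicate 2: it was 0.16 without that mouse and 0.91 without MED23 null replicate 1 (adjusted p = 0.914 and 0.683). The highest and the lowest *Elk1* signal came from the same genotype and treatment, and the highest again from the array with the raised lower quartile. The lowest, 65.9, was the only 1 of the 12 below 100.

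The ratio of αCD3 to mock *Elk1* signal was 1.20 and 0.440 in MED23 null mice and 0.349 to 2.37 in controls, where the 0.349 has that dim αCD3 signal above it. Both groups therefore held ratios on either side of 1. The induction in controls was 0.02 on the log2 scale (standard error 0.35, interval -0.81 to 0.85, adjusted p = 0.994), and the difference in induction was -0.41 (standard error 0.60, interval -1.84 to 1.02, adjusted p = 1.00). Without *Med23flox/flox* replicate 1 the induction in controls was -0.32 (adjusted p = 0.875).

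*Ets1* was measured by 2 probe sets that disagreed in how MED23 null cells stood to controls. They read the same gene and are not replicates of each other. Probe set 94332_at had mock signals of 3228 and 3324 in MED23 null cells, 3227 and 3594 in *Lck-Cre* cells and 3260 and 4275 in *Med23flox/flox* cells. On the αCD3 arrays it had 3139 and 3223 in MED23 null cells, 2787 and 2995 in *Lck-Cre* cells and 2582 and 3597 in *Med23flox/flox* cells. The groups overlapped in both treatments.

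Within each mouse the 94332_at ratio of *Ets1* was below 1 in 6 of 6 mice, at 0.972 and 0.970 in MED23 null mice and 0.864, 0.833, 0.792 and 0.842 in controls. In controls, where 8.68% of all probe sets were below 1 in every mouse, it averaged 0.833 ± 0.0299 (SD, n = 4 mice). The log2 change there was -0.26 (standard error 0.11, interval -0.52 to -0.0045), with an adjusted p of 0.630. The MED23 null ratios lay above all 4 controls, as for 6.02% of all probe sets, with a difference in induction of 0.22 (standard error 0.19, interval -0.23 to 0.66, adjusted p = 1.00).

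The second *Ets1* probe set, 94720_at, had mock signals of 2379 and 2666 in MED23 null cells, 2388 and 2130 in *Lck-Cre* cells and 2376 and 1636 in *Med23flox/flox* cells. After αCD3 it had 1523 and 1314 in MED23 null cells, below all 4 controls, which had 1953 and 2372 (*Lck-Cre*) and 1803 and 1695 (*Med23flox/flox*). Of all tested probe sets, 8.61% showed that order. The log2 difference after αCD3 was -0.44 (standard error 0.20, interval -0.91 to 0.03, adjusted p = 0.839), being -0.59 from *Lck-Cre* (standard error 0.22, adjusted p = 0.947) and -0.30 from *Med23flox/flox* (standard error 0.22, adjusted p = 0.760).

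The 94720_at ratio of *Ets1* was 0.640 and 0.493 in MED23 null mice and 0.818, 1.11, 0.759 and 1.04 in controls. MED23 null ratios were thus below all 4 controls, as for 7.36% of all probe sets, where those of 94332_at were above them. The induction in MED23 null cells was -0.81 (standard error 0.21, interval -1.30 to -0.32, adjusted p = 0.595), and the difference from controls was -0.69 (standard error 0.25, interval -1.30 to -0.09, adjusted p = 0.957). On the same αCD3 arrays the 3′ to 5′ actin ratio, a sign of RNA quality, was 1.90 and 1.61 in MED23 null mice and 1.35 to 1.41 in controls. The same ratio for *Gapdh* was 0.636 and 0.766 in MED23 null mice and 0.599 to 0.648 in controls, so that 1 MED23 null mouse lay among the controls. The part of RNA quality in the *Ets1* values, or in any other αCD3 values, was not tested.

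*Ets2*, a further ETS factor activated by ERK, separated the carriers of *Lck-Cre* from the mice without it in mock-treated cells. Probe set 94246_at had mock signals of 1501 and 1214 in MED23 null cells and 1403 and 1714 in *Lck-Cre* cells, against 2264 and 2555 in *Med23flox/flox* cells. All 4 Cre carriers lay below both mice without Cre, which was so for 7.09% of tested probe sets. The summed mock signals of 14 myeloid markers were 5126 to 5665 in MED23 null, 4356 to 5670 in *Lck-Cre* and 3542 to 4126 in *Med23flox/flox* cells, and those of 4 erythroid markers were 15010 to 37390, 14010 to 16680 and 6443 to 13500 in the same groups. These sums separate the mice as *Ets2* does, in the opposite direction, and their part in it was not tested. The log2 difference of MED23 null from *Med23flox/flox* cells was -0.81 (standard error 0.21, interval -1.32 to -0.30, adjusted p = 0.473), and that of *Lck-Cre* from *Med23flox/flox* cells was -0.62 (standard error 0.21, interval -1.13 to -0.10, adjusted p = 0.806). From *Lck-Cre* cells, the controls with the same transgene, MED23 null cells differed by -0.19 (standard error 0.21, interval -0.71 to 0.32, adjusted p = 0.909).

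After αCD3 the *Ets2* signals were 1484 and 1350 in MED23 null cells, 1175 and 1734 in *Lck-Cre* cells and 1519 and 1933 in *Med23flox/flox* cells, and the Cre carriers and the mice without Cre overlapped. The ratio of αCD3 to mock signal was 0.989 and 1.11 in MED23 null mice, 0.838 and 1.01 in *Lck-Cre* mice and 0.671 and 0.757 in *Med23flox/flox* mice. The induction was 0.07 in MED23 null cells (standard error 0.19, adjusted p = 0.999) and -0.30 in controls (standard error 0.14, adjusted p = 0.660).

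**Figure D2:**
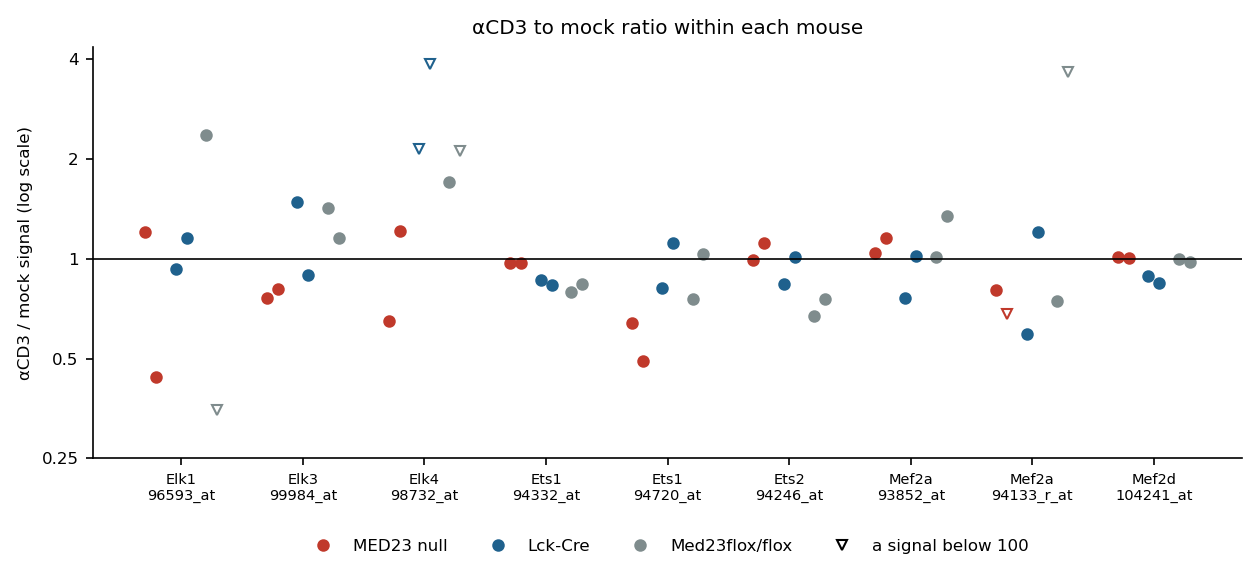
αCD3 signal over mock signal for every mouse (log2-spaced axis) for the 9 tested probe sets, with the MED23 null mice at the left of each set; open triangles mark ratios in which a signal was below 100. The *Elk4* ratios of the 4 controls lie at 1.71 and above, and the *Ets1* probe sets place the MED23 null mice on opposite sides of the controls.

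*Mef2d*, which encodes the MEF2 factor tied to *Nr4a1* transcription and cell death in stimulated thymocytes, was brighter in MED23 null cells than in all controls after αCD3. Probe set 104241_at had αCD3 signals of 8813 and 9489 in MED23 null cells, against 7600 and 8245 in *Lck-Cre* and 7944 and 6967 in *Med23flox/flox* cells. It was the only 1 of the 9 with this order, which 6.90% of all probe sets showed. The log2 difference was 0.25 (standard error 0.17, interval -0.14 to 0.65), with an adjusted p of 0.904.

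In mock-treated cells *Mef2d* had 8712 and 9418 in MED23 null cells, 8577 and 9747 in *Lck-Cre* cells and 7976 and 7104 in *Med23flox/flox* cells. MED23 null and *Lck-Cre* values were interleaved, and all 4 Cre carriers lay above both mice without Cre, as for 7.85% of probe sets. The difference of MED23 null from *Lck-Cre* cells was -0.01 (standard error 0.18, interval -0.46 to 0.43, adjusted p = 0.994), and that from *Med23flox/flox* cells was 0.27 (standard error 0.18, interval -0.18 to 0.71, adjusted p = 0.791). The ratios of αCD3 to mock signal were 1.01 in both MED23 null mice and 0.886, 0.846, 0.996 and 0.981 in controls. MED23 null and control ratios lay on opposite sides of 1. Both MED23 null ratios were above all controls for 6.02% of all probe sets. The difference in *Mef2d* induction was 0.13 (standard error 0.20, adjusted p = 1.00).

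By 1 of its 2 probe sets, *Mef2a*, a widely expressed MEF2 gene, was brightest in *Lck-Cre* cells after mock treatment. Probe set 93852_at had mock signals of 2090 and 1807 in MED23 null cells, 2530 and 2539 in *Lck-Cre* cells and 1969 and 1911 in *Med23flox/flox* cells. Both *Lck-Cre* values lay above the other 4 mice, an order whose share over the whole array was not counted. The log2 difference of MED23 null from *Lck-Cre* cells was -0.37 (standard error 0.17, interval -0.81 to 0.06, adjusted p = 0.771). That from *Med23flox/flox* cells was 0.0024 (standard error 0.17, adjusted p = 0.998). After αCD3 it had 2178 and 2090 in MED23 null cells, 1933 and 2596 in *Lck-Cre* cells and 1992 and 2578 in *Med23flox/flox* cells. MED23 null and control mice overlapped in both treatments and in the ratio, which was 1.04 and 1.16 in MED23 null mice and 0.764 to 1.35 in controls. The difference in induction was 0.11 (standard error 0.27, interval -0.53 to 0.74, adjusted p = 1.00).

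The second *Mef2a* probe set, 94133_r_at, was near the dim end of the arrays, at 62.0 to 242.5, and below 100 on 3 of 12 arrays. After αCD3 it had 100.6 and 62.0 in MED23 null cells and 103, 126, 106 and 242.5 in controls, so that both MED23 null arrays were below the 4 controls. That order was shown by 8.61% of all tested probe sets. The closest pair was 100.6 in MED23 null and 103 in control cells. The log2 difference was -0.53 (standard error 0.31, interval -1.26 to 0.20, adjusted p = 0.903), while the brighter probe set gave -0.08 (standard error 0.20, adjusted p = 0.980).

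*Mef2c*, the MEF2 gene known for its role in B cells, myeloid cells and muscle, gave no signal of 100 or more. Its 4 probe sets lay at 6.60 to 44.2 (104590_at), 9.80 to 76.4 (104591_g_at), 4.70 to 33.5 (104592_i_at) and 6.30 to 75.3 (97357_at) over the 12 arrays. The highest signal came from mock-treated *Lck-Cre* replicate 1 for 104590_at and 97357_at, from αCD3-treated MED23 null replicate 2 for 104591_g_at and from αCD3-treated *Med23flox/flox* replicate 1 for 104592_i_at. The probe sets thus named no common group. They were not tested for induction or between genotypes, and their ratios were not interpreted. The B cell markers, 10 of 11 of them above 100 on at least 1 array, had summed signals of 8746 to 8963 in mock-treated MED23 null cells and 7241 to 8012 in controls. Their part in the *Mef2c* signals was not tested.

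**Figure D3:**
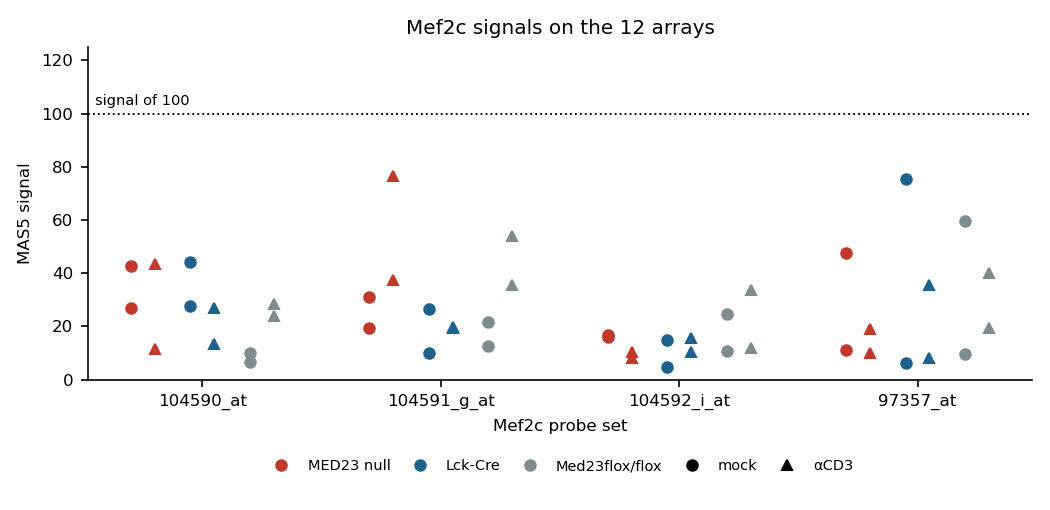
MAS5 signal of the 4 *Mef2c* probe sets on the 12 arrays, with MED23 null arrays at the left of each set, circles for mock and triangles for αCD3. All 48 points lie below the dotted line at 100.

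Across the 9 tested probe sets, MED23 null and control mice were apart most often in the ratio within a mouse. In mock-treated cells MED23 null values lay above all controls for 1 probe set and below them for 0 (8.44% of all probe sets), where 17.7% of all probe sets separated in either direction. After αCD3 the counts were 1 above and 2 below, with 15.5% over the array, and for the ratio within each mouse 2 above and 3 below (7.36% of all probe sets), with 13.4% in either direction. The 5 of 9 for the ratio include *Ets1* in both directions and *Elk4* with its dim signals. The median log2 difference of the 9 from controls was 0.13 after mock treatment and -0.08 after αCD3, where all probe sets had medians of 0.01 and -0.01. For the difference in induction the median was -0.41 over the 9, against -0.02 over all probe sets. With each of the 7 genes by its brightest probe set, that median was 0.11.

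**Figure D4:**
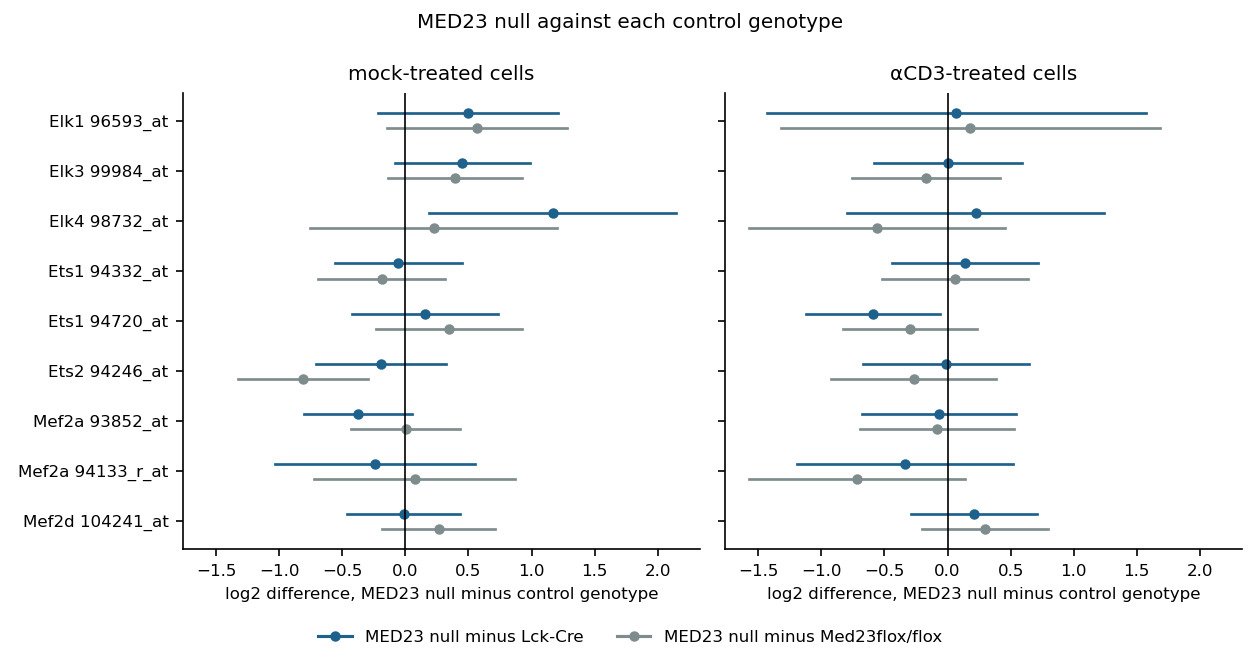
Log2 difference of MED23 null from *Lck-Cre* and from *Med23flox/flox* cells for each tested probe set in mock-treated (left) and αCD3-treated cells (right), with 95% intervals from limma that are not adjusted for the number of tests. Intervals exclude 0 for *Elk4* against *Lck-Cre* and *Ets2* against *Med23flox/flox* in mock-treated cells and for *Ets1* 94720_at against *Lck-Cre* after αCD3, with adjusted p of 0.608, 0.473 and 0.947.

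Among genes that these factors are known to switch on, *Nr4a1*, *Egr2* and *Ier2* rose after αCD3 in controls, and no other listed target was called. Of 18 tested targets of SRF and the ternary complex factors, 3 rose in controls and 1 in MED23 null cells, and none fell. Over the whole array, 0.148% and 0.0317% of probe sets were called. The list was written with earlier results of these data known, so its counts and medians are a description only. The list's median induction was 0.06 in MED23 null cells and 0.23 in controls, against -0.02 and 0.00 over all probe sets. *Nr4a1*, an orphan nuclear receptor gene that is also on the MEF2 list, had αCD3 over mock ratios of 8.87 and 8.33 in MED23 null mice and 9.88 to 14.8 in controls. The MED23 null ratios were below all controls, as for 7.36% of all probe sets. *Nr4a1* passed in both groups (adjusted p = 0.0117 in MED23 null cells and 0.000419 in controls). In MED23 null cells the call was lost without the block by mouse (adjusted p = 0.0846), with *Lck-Cre* or *Med23flox/flox* controls alone (0.196 and 0.371) and with any 1 mouse left out but *Med23flox/flox* replicate 1 (0.0503 to 0.591), at log2 values of 2.92 to 2.93. In controls it held with each mouse left out and was lost with 1 control genotype alone. The difference was not called (-0.49, standard error 0.22, adjusted p = 0.971).

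*Egr2*, a zinc finger factor gene whose promoter stretches are printed above, had αCD3 signals of 729 and 707 in MED23 null cells, against 1321 and 1352 in *Lck-Cre* and 1503 and 1585 in *Med23flox/flox* cells. The MED23 null signals thus lay below all controls, as for 8.61% of all probe sets (log2 difference -0.95, standard error 0.17, adjusted p = 0.493). Mock signals of *Egr2* were 198 and 235 in MED23 null cells, 114 and 56.6 in *Lck-Cre* cells and 255 and 167 in *Med23flox/flox* cells. The *Lck-Cre* mock signals were thus the lowest, and the 56.6 was below 100. The *Egr2* induction passed in controls (log2 3.01, standard error 0.22, adjusted p = 0.00808) and did not in MED23 null cells (1.53, standard error 0.31, adjusted p = 0.548). The test of the difference gave -1.48 (standard error 0.38, adjusted p = 0.809). *Egr1*, the related zinc finger factor gene, had αCD3 signals of 748 and 544 in MED23 null cells and 1438 to 2283 in controls, and mock signals of 209 and 528 in MED23 null cells and 226 to 471 in controls. The MED23 null αCD3 signals of *Egr1* lay below all controls, as for 8.61% of all probe sets. They differed by -1.33 on the log2 scale (standard error 0.25, adjusted p = 0.493). The *Egr1* induction in controls just missed the threshold (2.17, standard error 0.26, adjusted p = 0.0521).

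*Ier2*, another immediate early gene, had αCD3 signals of 924 and 928 in MED23 null cells and 1512 to 2232 in controls. The MED23 null signals lay below all controls, as for 8.61% of all probe sets (log2 difference -0.93, standard error 0.20, adjusted p = 0.493). Mock signals of *Ier2* were 390 and 376 in MED23 null cells and 478 to 699 in controls. They were likewise apart, an order that 8.44% of all probe sets showed, without passing the test (log2 difference -0.56, standard error 0.18, adjusted p = 0.548). The *Ier2* log2 inductions were 1.17 in MED23 null cells (standard error 0.18, adjusted p = 0.393) and 1.55 in controls (standard error 0.12, adjusted p = 0.00976), and their difference was -0.38 (standard error 0.22, adjusted p = 1.00). With 1 mouse left out, the calls in controls held in 4 of 6 cases for *Egr2* and in 3 of 6 for *Ier2* (adjusted p up to 0.0815 and 0.0901). The cytoskeletal genes on the list, to which SRF is directed by actin-sensing MRTF cofactors, did not pass; *Actg1* and *Vcl* had log2 inductions of 0.22 and -0.08 in MED23 null cells and 0.27 and 0.37 in controls.

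Of the 8 tested MEF2 targets, *Nr4a1* alone rose, in both groups, and none fell, where 0.148% (controls) and 0.0317% (MED23 null) of all probe sets were called. *Klf2*, which carries a MEF2 box in its promoter stretch, had mock signals of 36.8 and 44.2 in MED23 null cells, 415 and 343 in *Lck-Cre* cells and 47.7 and 64.4 in *Med23flox/flox* cells. The MED23 null values lay below all controls, as for 8.44% of all probe sets (log2 difference -1.23, standard error 0.69, adjusted p = 0.738). The difference was -2.24 from *Lck-Cre* (standard error 0.19, adjusted p = 0.279) and -0.23 from *Med23flox/flox* cells (standard error 0.19, adjusted p = 0.820). Only the *Lck-Cre* mock arrays were above 100, and after αCD3 all groups lay at 28.9 to 88.1. Of 8 tested ETS1 targets, 0 passed for induction, and the receptor component *Cd3g* had log2 inductions of -0.04 in MED23 null cells and -0.08 in controls.

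Calls were as few among the partners and regulators of the factors, where 0.148% of all probe sets were called for induction in controls. Of 16 tested MEF2 regulators, *Nfatc1*, a calcineurin-driven factor gene, rose in controls with a ratio of 3.39 ± 0.643 (SD, n = 4 mice; log2 1.57, standard error 0.16, adjusted p = 0.0268). In MED23 null mice its ratio was 1.93 ± 0.614 (SD, n = 2 mice; log2 0.82, standard error 0.23, adjusted p = 0.629), and the difference was not called (-0.76, standard error 0.28, adjusted p = 0.957). The *Nfatc1* call in controls was lost with any 1 mouse left out (adjusted p of 0.0581 to 0.203). None of 14 ETS and SRF cofactors, 10 ERK pathway genes and 9 other ETS family genes passed for induction. Of the other ETS genes, *Erf*, an ETS repressor gene that ERK controls, had ratios of 0.683 ± 0.191 (SD, n = 2) in MED23 null mice and 1.35 ± 0.172 (SD, n = 4) in controls, a difference of -0.81 (standard error 0.23, adjusted p = 0.834). *Dusp6*, which encodes a phosphatase of ERK, had αCD3 signals of 164.5 and 106 in MED23 null cells and 204 to 312 in controls (log2 difference -0.71, standard error 0.22, adjusted p = 0.671). No gene of any list was called between genotypes.

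**Figure D5:**
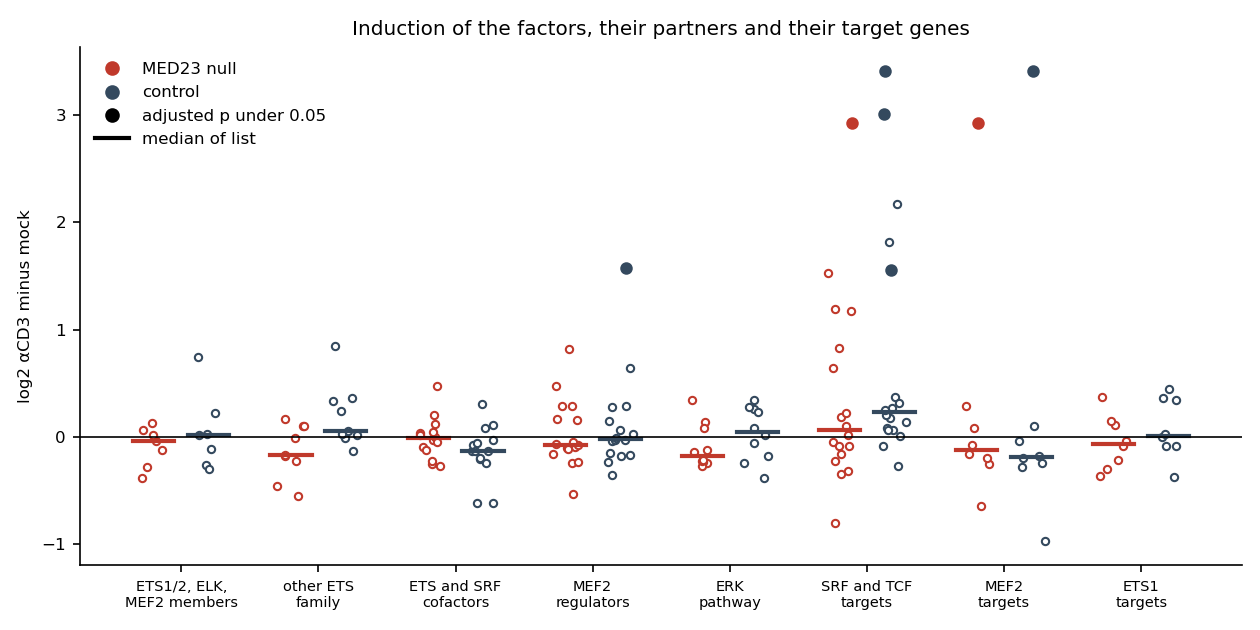
Log2 difference of αCD3 from mock (with 50 added to each signal) for the factors, each gene by its brightest probe set, and for the lists of related genes, in MED23 null cells (left of each pair) and controls (right); filled points passed the test at an adjusted p under 0.05 and bars are medians. The filled points are *Nr4a1*, *Egr2* and *Ier2* among targets, *Nr4a1* appearing on 2 lists, and *Nfatc1* among MEF2 regulators, and no factor is filled.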

How the data were processed

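Thymocyte RNA of each mouse and treatment was measured on 1 array (Affymetrix Murine Genome U74 set, array A, version 2). The deposited values are intensities, MAS5 signals on a linear scale that the authors computed per probe set; the version is not given in the sources used here, and detection calls were not used. For arrays there is no read depth, and their number limits the precision. Each array was scaled by its mean after 2% was trimmed at each end, which changed signals by at most 0.00603%. From 12488 probe sets 66 control sets were removed, and 9478 had a mean signal of at least 100 in 1 of the 6 conditions. Differences were taken on log2(signal + 50), which understates changes of dim probe sets.

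The αCD3 and mock arrays of 1 replicate number are the same mouse by the source names; the array code in the description of αCD3-treated *Lck-Cre* replicate 2 is also that of mock-treated *Med23flox/flox* replicate 1, and its title and source name were followed. So induction was the difference within a mouse, fitted with a mean for MED23 null and for control mice (4 residual degrees of freedom). As a check of this pairing, deviations from the group means correlated at 0.061 (MED23 null), 0.094 (*Lck-Cre*) and 0.149 (*Med23flox/flox*). The deviations of 2 mice in a group mirror each other, so each genotype gives 1 value. These values are near 0, and the pairing rests on the source names. Replicates are different mice, and numbers do not pair mice of different genotypes. Genotypes were compared within a treatment with 2 means or, against each control genotype, 3 means (3 residual degrees of freedom). All 11 comparisons used limma 3.58.1 (lmFit, eBayes) in R 4.3.3 with Benjamini-Hochberg adjustment; comparisons share control mice. Scripts were tested on simulated data. Python 3.11.15 with pandas 2.3.3 and matplotlib 3.10.9 made summaries and plots.

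The platform annotation gives 1 symbol to 10855 probe sets, of which 10839 matched GRCm38.p6 by Entrez ID. Members, and lists of targets, partners and cell markers, were chosen with earlier results of these data known. Every member probe set is named; listed genes, each by its brightest probe set, are named if they passed or, as examples from up to 2 per list and comparison, for the largest differences; *Actg1*, *Vcl*, *Cd3g*, *Cd4* and *Med23* were named beyond that rule. Alternatives were other pseudocounts, filters and scalings, a variance trend, 1 control genotype, no block by mouse or a block by number, and each mouse left out.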

Additional observations from a re-analysis of the deposited data

Results flagged for a closer look

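Among 39 sets of 4 control values of the members, 3 had 1 mouse far from the rest by Dixon's test at the 95% level, where chance gives about 1 in 20. They were the *Elk4* mock signal of 197 (*Med23flox/flox* replicate 1), the *Elk4* αCD3 signal of 337 (the same mouse, on the array with the raised lower quartile) and the αCD3 signal of 242.5 of *Mef2a* 94133_r_at (*Med23flox/flox* replicate 2).

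Among the 9 tested probe sets, both MED23 null mice moved opposite to both mice of a control genotype after αCD3 in 3 cases. These were not tested against each genotype alone, and the share of all probe sets with such an order was not counted. The *Elk3* induction differed by -0.57 on the log2 scale between MED23 null and *Med23flox/flox* mice. The *Mef2d* induction differed by 0.22 between MED23 null and *Lck-Cre* mice and by 0.0306 between MED23 null and *Med23flox/flox* mice. The *Mef2d* ratios were 1.01 in both MED23 null mice and 0.996 and 0.981 in *Med23flox/flox* mice, all close to 1.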

How the results depend on the processing

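No member passed the test in any of 1316 alternative values, whose lowest adjusted p was 0.154 (limma; *Elk4* induction in controls ranged over adjusted p of 0.154 to 0.785). Counts over the array moved more. Induction in controls, 14 probe sets, gave 27 with 100 added to signals, 33 with a signal of at least 200, 4 with a variance trend, and 0 with either control genotype alone, where fewer mice are left. Induction in MED23 null cells, 3 probe sets, gave 1 with 16 added, with no filter, with quantile normalization and with a variance trend, and 0 with either control genotype alone. Without the replicate block by mouse the counts were 42 in controls and 0 in MED23 null cells; a block by replicate number across genotypes left 0 calls between MED23 null and controls in both treatments, as without it. MED23 null against controls, 0 probe sets, gave 1 at a signal of at least 200 and 2 with a variance trend in mock-treated cells and 5 with a variance trend after αCD3, and MED23 null against *Lck-Cre* in mock-treated cells gave 3 with the trend. With 1 mouse left out, induction gave 3 to 9 calls in controls and 0 to 1 in MED23 null cells, and the lone mouse of a genotype is assumed to vary like the others. For all these the cause was not tested.

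Signs of member differences turned in 56 alternative values; the reported log2 differences were 0.0024 to 0.56 in size, in 7 of the 56 at least 0.2. Induction in controls was -0.013 (16 added), -0.00037 (10% trimmed) and -0.0067 (quantile) for *Elk1*, -0.0015 (10% trimmed) and -0.17 (*Lck-Cre* alone) for *Mef2a* 93852_at and -0.18 (*Lck-Cre* alone) for *Mef2a* 94133_r_at. With *Med23flox/flox* controls alone, *Mef2a* 93852_at gave -0.088 for the difference in induction and 0.0024 for MED23 null against controls in mock-treated cells, where 94133_r_at gave 0.073. With *Lck-Cre* controls alone, the difference was -0.013 for mock-treated *Mef2d*, and 0.0033 for *Elk3* and 0.22 for *Elk4* after αCD3. Quantile normalization gave 0.011 for *Mef2d* (mock, against *Lck-Cre*), -0.0011 for *Elk3* and -0.021 for *Ets1* 94332_at (αCD3, against *Lck-Cre* and *Med23flox/flox*), and trimming 10% gave -0.018 for *Mef2a* 93852_at (mock, against *Med23flox/flox*). Without the αCD3 array of *Med23flox/flox* replicate 1, chosen after seeing the data, *Elk4* gave 0.16 against controls and 0.031 against *Med23flox/flox*, and *Ets1* 94332_at gave -0.17 against *Med23flox/flox*.

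Calls of *Egr2*, *Ier2*, *Nfatc1* and *Nr4a1* in controls were lost with 1 control genotype alone, and those of *Ier2* and *Nfatc1* also with a variance trend (adjusted p = 0.0851 and 0.132).

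With each mouse left out in turn, induction in controls ranged over -0.32 to 0.38 for *Elk1*, -0.11 to 0.16 for *Mef2a* 93852_at and -0.22 to 0.41 for 94133_r_at. Induction in MED23 null cells ranged over -0.99 to 0.22 for *Elk1*, -0.45 to 0.21 for *Elk4* and -0.016 to 0.15 for *Ets2*, and the difference over -1.01 to 0.20 for *Elk1* and -0.025 to 0.24 for *Mef2a* 93852_at. In mock-treated cells MED23 null ranged over -0.26 to 0.071 against controls for *Mef2a* 94133_r_at. Against *Lck-Cre* it was -0.13 to 0.021 for *Ets1* 94332_at, -0.51 to 0.022 for *Mef2a* 94133_r_at and -0.11 to 0.078 for *Mef2d*. Against *Med23flox/flox* it was -0.38 to 0.82 for *Elk4*, -0.38 to 0.0067 for *Ets1* 94332_at, -0.10 to 0.11 for *Mef2a* 93852_at and -0.29 to 0.44 for 94133_r_at. After αCD3 it was -0.23 to 0.44 for *Elk1* and -0.36 to 0.16 for *Elk4* against controls. Against *Lck-Cre* it was -0.16 to 0.30 for *Elk1*, -0.21 to 0.22 for *Elk3*, -0.28 to 0.26 for *Ets2* and -0.28 to 0.14 for *Mef2a* 93852_at. Against *Med23flox/flox* it was -0.81 to 1.17 for *Elk1*, -1.15 to 0.031 for *Elk4*, -0.17 to 0.29 for *Ets1* 94332_at and -0.27 to 0.097 for *Mef2a* 93852_at, and *Lck-Cre* against *Med23flox/flox* was -0.53 to 0.016 for *Ets2*.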

Other observations

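The genes whose signals followed each factor most closely over the 12 arrays of 6 mice, as a description, were *Eda* for *Elk1* (r = 0.936), *Gm9574* for *Elk3* (r = 0.880), *Psmb5* for *Elk4* (r = 0.926), *Mark2* for *Ets1* 94332_at (r = 0.901), *Dynll2* for *Ets2* (r = 0.904), *Trav19* for *Mef2a* 93852_at (r = 0.858) and *Pkig* for *Mef2d* (r = 0.900). The arrays share mice and scaling, and each gene was picked as the closest among all tested genes.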
